A study of Mus musculus with 9 samples.

Results

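The collagen genes were taken as the protein-coding genes whose mouse gene name is Col, a number, the letter a and a number. There were 44 of them among 56620 genes and assembled loci. They were sorted into 11 fibrillar collagens, 8 basement membrane collagens and 25 other collagens. Collagens are secreted proteins of chains that wind around each other into a triple helix, in which glycine recurs at a fixed interval along each chain. Fibrillar collagens assemble into the cross-striated fibrils of interstitial matrix, and basement membrane collagens form the sheet-like network on which endothelial cells rest in lung capillaries. The other collagens decorate fibrils, anchor basement membranes, form beaded filaments or short-chain networks, or stay in the cell membrane.

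RNA was sequenced from mouse lung cells bought from a commercial supplier and labelled PMVECs, pulmonary microvascular endothelial cells. The HO-rWNT5A cells were held in 85% oxygen with 100 ng/ml recombinant WNT5A, a secreted WNT ligand. The HO cells were held in 85% oxygen without it, and the RA cells in room air with 21% oxygen. Each group had 3 libraries and each culture lasted 48 h. No label states that the 3 libraries were grown as separate cultures, and their spread, on which each p-value rests, may be only technical. Levels are FPKM, that is, fragments per unit of transcript length and of library size, added up over a gene's transcripts and then scaled between libraries. The depth, estimated roughly from the values, was 21300000 to 26500000 fragments per library.

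The labelled cell type was set against its markers. Of 12 endothelial markers, 9 lay under 1 FPKM on average. Pecam1, an endothelial junction protein, averaged 0.093 ± 0.035 FPKM and Cdh5, the endothelial cadherin, averaged 0.0543 ± 0.018 FPKM (SD, n = 9). Flt1, a VEGF receptor, was present at 37.9 ± 4.6 FPKM and Emcn at 10.1 ± 1.1 FPKM. All 8 fibroblast markers lay under 1 FPKM. Of 9 pericyte and smooth muscle markers, 7 lay above 1 FPKM, led by the smooth muscle actin gene Acta2 at 1570 ± 140 FPKM, the actin-binding gene Tagln at 886 ± 89 FPKM and the intermediate filament gene Des at 366 ± 54 FPKM. The 2 under 1 FPKM were Myh11 at 0.236 FPKM and Rgs5 at 0.757 FPKM. Of 6 epithelial markers, 4 lay above 1 FPKM, led by Krt18 at 54.7 FPKM and Krt8 at 31.2 FPKM, and of 4 leukocyte markers 2 did. The marker levels go against the label, and the cells are called PMVECs only as the label does. In bulk RNA, fewer cells of a type and less RNA per cell cannot be told apart.

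Collagen genes held 0.273% to 0.312% of the protein-coding FPKM of a library. Basement membrane collagens made up 51.1% of the collagen FPKM, fibrillar collagens 41.8% and the other collagens 7.03%. Col1a1, Col4a1 and Col4a2 alone made up 65.9%. A mean of at least 1 deposited FPKM over the 9 libraries, the level needed for a test, was reached by 21 of the 44 genes: 8 of 11 fibrillar, 7 of 8 basement membrane and 6 of 25 other collagens. These 21 held 99.64% of the collagen FPKM. Of the 23 below it, Col20a1, which belongs to the fibril-associated group, averaged 0.918 FPKM and Col11a2, a chain of the minor fibrillar type XI collagen, averaged 0.51 FPKM. The lowest members above it were Col15a1 at 1.56 FPKM and Col6a2 at 2.09 FPKM.

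**Figure D1:**
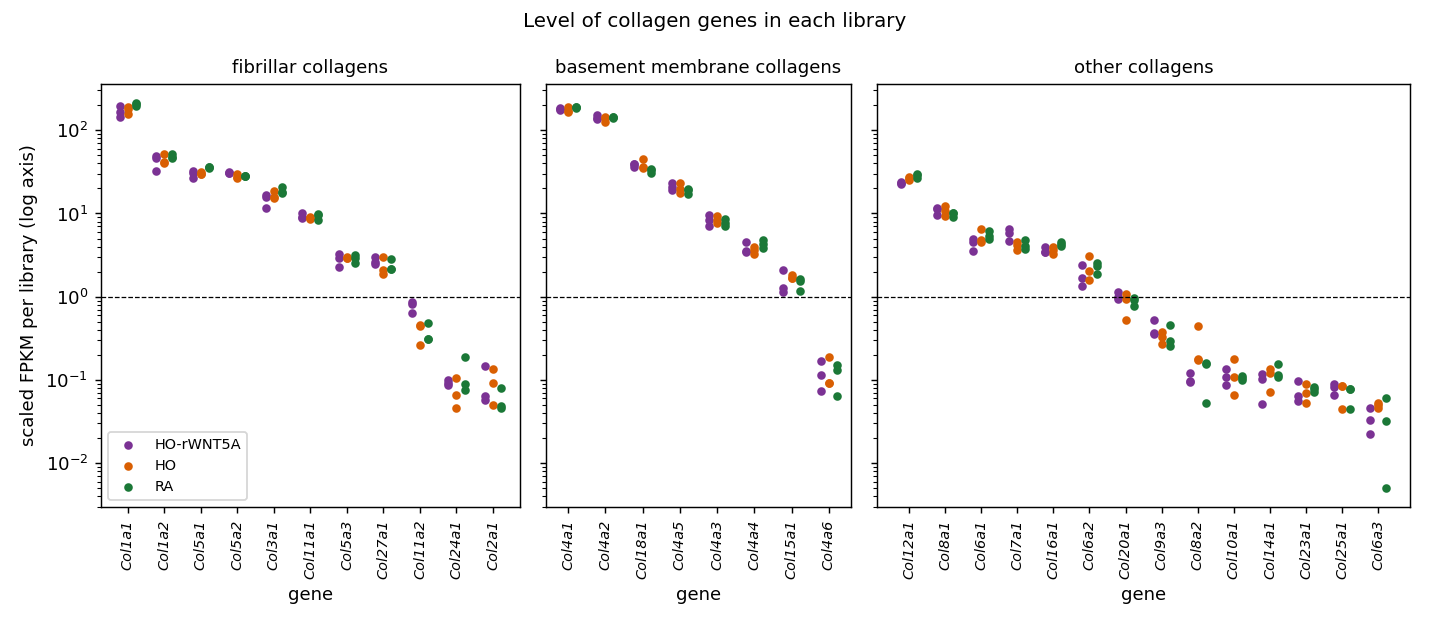
Level of collagen genes in each library, as scaled FPKM on a log axis. Each point is 1 library, coloured by group, with HO-rWNT5A left of HO and HO left of RA for each gene; the dashed line marks 1 FPKM, and the 33 genes above 0 in all 9 libraries are drawn. Col1a1, Col4a1 and Col4a2 stand above 120 FPKM, and most of the other collagens lie under 1 FPKM.

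The classes differ in their coding sequence. Genes were chosen by name, but the classes are the customary ones, which reflect the form of the helix. The runs below therefore describe the classes and are not independent of the sorting. The longest uninterrupted run of repeats with a glycine codon at 1 position in 3 had a median of 338 repeats in the 11 fibrillar genes, with a range of 216 to 344. It had a median of 41 repeats in basement membrane genes (30 to 66) and of 52 in the other collagens (23 to 113). Basement membrane genes had a median of 23 runs of at least 6 repeats, against 2 in fibrillar genes. Internal coding exons of exactly 54 bases, which is 6 repeats, made up a median of 47.7% of internal coding exons in fibrillar genes, 4.22% in basement membrane genes and 8.86% in the other collagens. Runs were read from the GENCODE M21 transcripts (GRCm38).

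Coding exons are shown to let the repeat be read, with the glycine codons of a run in capitals. Those of the fibrillar chains Col1a1 and Col5a1 have 54 bases and carry the glycine codon without a break. The exon of the basement membrane chain Col4a1 holds a break between a pair of runs, and the exon of the fibril-associated chain Col12a1, with 10 glycine codons of 2 runs, holds the most among its internal coding exons of up to 150 bases.
Col1a1, chr11:94939904-94939957, plus strand: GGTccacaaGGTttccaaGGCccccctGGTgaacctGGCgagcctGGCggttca
Col5a1, chr2:27965251-27965304, plus strand: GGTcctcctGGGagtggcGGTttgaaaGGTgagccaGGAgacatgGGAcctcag
Col4a1, chr8:11244486-11244569, minus strand: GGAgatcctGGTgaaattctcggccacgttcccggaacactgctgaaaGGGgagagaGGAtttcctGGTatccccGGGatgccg
Col12a1, chr9:79613761-79613856, minus strand: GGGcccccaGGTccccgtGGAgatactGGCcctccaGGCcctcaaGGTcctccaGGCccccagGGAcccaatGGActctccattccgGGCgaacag

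**Figure D2:**
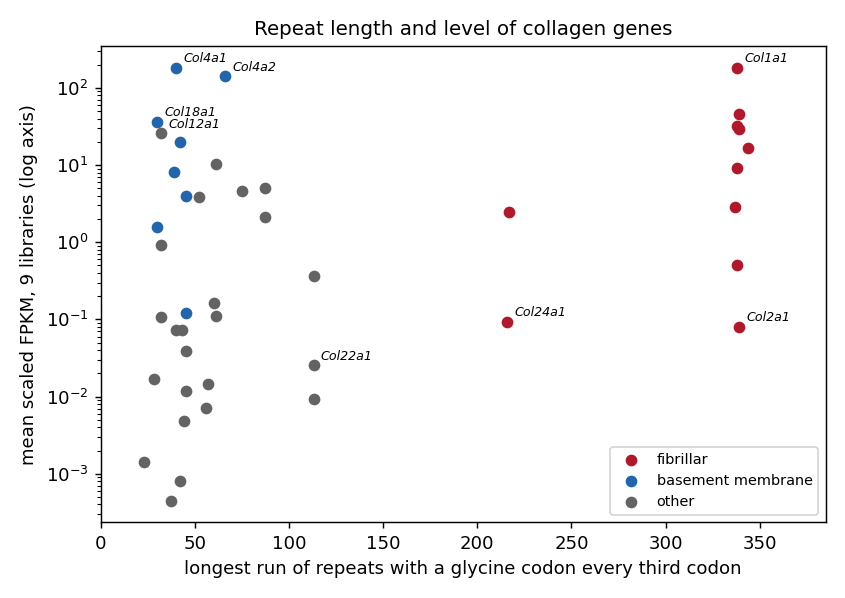
Longest run of repeats with a glycine codon at 1 codon in 3 (horizontal axis, repeats) and mean scaled FPKM over the 9 libraries (vertical log axis) for 43 collagen genes, coloured by class; Col9a1, listed at 0, is not drawn. Long runs stand alone to the right at 216 to 344 repeats and belong to fibrillar genes, whose levels span Col2a1 at 0.0801 FPKM to Col1a1 at 183 FPKM.

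Among the fibrillar collagens, the type I chains were the most abundant. Col1a1, the main chain of type I collagen, averaged 183 ± 23 FPKM over the 9 libraries and its partner Col1a2 averaged 45.2 ± 6.3 FPKM. The type V chains, which regulate fibril diameter, followed with Col5a1 at 32.1 ± 3.4 FPKM and Col5a2 at 29.0 ± 1.5 FPKM. Col3a1, the type III collagen of distensible tissues such as vessel walls, averaged 16.7 ± 2.6 FPKM, and Col11a1, a type XI chain, averaged 9.16 ± 0.58 FPKM. Low levels were found for Col5a3 at 2.88 FPKM and Col27a1 at 2.46 FPKM, and only 36.0% of the Col27a1 FPKM came from protein-coding transcripts. Col2a1, the cartilage collagen, and Col24a1 lay at 0.0801 and 0.0937 FPKM.

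The basement membrane class was led by Col4a1 at 182 ± 9.1 FPKM and Col4a2 at 141 ± 6.9 FPKM, the chains of the ubiquitous type IV network. Col18a1, whose C-terminal fragment is endostatin, averaged 36.3 ± 4.2 FPKM. Col4a5, Col4a3 and Col4a4, the chains of the specialised type IV network known from kidney and lung alveolus, averaged 19.9 ± 2.1, 8.19 ± 0.87 and 3.92 ± 0.53 FPKM. Col4a6, the remaining type IV chain, averaged 0.12 FPKM. Col15a1, the relative of Col18a1, averaged 1.56 ± 0.31 FPKM.

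The type IV genes lie head to head in pairs, and the bases around their starts are shown because the levels of partners were close in one pair (Col4a1 and Col4a2) and far apart in another (Col4a5 and Col4a6). Bases before a start come from RefSeq (GRCm38.p6), where 35 of the 44 genes had an entry. They were searched on both strands for the TATA motif TATAAA, the CCAAT box and the GC box GGGCGG, with matches in capitals; no match overlapped another. Col4a1 and Col4a2 overlap by 22 bases at their starts. Only a read confined to those bases could not be assigned without strand, and the reads had 150 bases. Whether the counting used strand is not given in the sources used here. The gap between the starts of Col4a4 and Col4a3 is 71 bases. The starts of Col4a6 and Col4a5 are 1308 bases apart, and 150 bases before each are given.
Col4a1 and Col4a2, shared bases, chr8:11312805-11312826, plus strand: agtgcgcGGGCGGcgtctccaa
Col4a4 and Col4a3, gap, chr1:82586850-82586920, plus strand: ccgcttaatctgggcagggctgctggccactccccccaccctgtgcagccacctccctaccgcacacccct
Col4a5, before the start, chrX:141475235-141475384, plus strand: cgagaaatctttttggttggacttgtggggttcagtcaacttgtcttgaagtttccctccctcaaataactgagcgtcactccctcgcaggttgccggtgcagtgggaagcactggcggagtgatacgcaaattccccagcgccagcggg
Col4a6, before the start, chrX:141474077-141474226, minus strand: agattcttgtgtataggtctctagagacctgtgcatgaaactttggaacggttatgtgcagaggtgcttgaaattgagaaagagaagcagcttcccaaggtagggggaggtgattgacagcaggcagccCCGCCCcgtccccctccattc

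The gap of Col4a4 and Col4a3 held none of the 3 motifs. Over the 32851 RefSeq promoters, windows of 71 bases before a start held TATAAA in 4.41%, CCAAT in 13.3% and GGGCGG in 20.7%. GGGCGG occurred once in the Col4a6 window and not in the Col4a5 window, and windows of 150 bases held it in 28.6% of promoters, CCAAT in 24.5% and TATAAA in 7.57%. A match or its absence describes these letters only.

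Col18a1 has a pair of annotated starts, and the upstream one carried most of its FPKM. The transcript that begins at the upstream start averaged 34.7 FPKM (95.7% of the gene). The transcript whose start lies 52602 bases downstream averaged 1.05 FPKM. The 150 bases before the upstream start held 3 matches to GGGCGG, all on the strand opposite to the printed one, and none to the other motifs.
Col18a1, before the upstream start, chr10:77166549-77166698, minus strand: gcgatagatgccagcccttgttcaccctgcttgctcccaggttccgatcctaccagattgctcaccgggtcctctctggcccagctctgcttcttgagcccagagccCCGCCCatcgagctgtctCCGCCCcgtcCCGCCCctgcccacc

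Among the other collagens, Col12a1, which binds the surface of fibrils, was the highest at 25.95 ± 2.6 FPKM. Col8a1, a short-chain network collagen of vessel walls, averaged 10.46 ± 1.1 FPKM, while its partner Col8a2 averaged 0.164 FPKM. The beaded filament genes Col6a1 and Col6a2 averaged 5.03 ± 0.89 and 2.09 ± 0.56 FPKM. Col6a3, the chain that joins them in type VI collagen, averaged 0.0388 FPKM, and its relatives Col6a4, Col6a5 and Col6a6 lay at or under 0.0119 FPKM. Col7a1, the chain of anchoring fibrils, averaged 4.65 ± 0.96 FPKM, with 73.0% of it from protein-coding transcripts. Col16a1, of the fibril-associated group, averaged 3.84 ± 0.41 FPKM, with 34.6% from protein-coding transcripts. The remaining 19 other collagens lay under 1 FPKM, and Col9a1, a cartilage collagen, was listed at 0 in all 9 libraries.

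In the order of mean levels of the 21 genes, most neighbours overlapped in their ranges over the 9 libraries. A gap with no overlap separated Col4a1 from Col4a2, Col4a2 from Col1a2, Col4a3 from Col6a1, and Col16a1 from Col5a3. Col1a1 and Col4a1, first and second, overlapped.

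Hyperoxia alone was compared with room air. No collagen gene passed limma's test at an adjusted p under 0.05, out of 21 tested, where 1.97% of all 13831 genes passed. The median log2 fold change of the 21 genes was -0.05, against 0.00 for all genes. At an unadjusted p under 0.05, 3 of 21 collagen genes and 2509 of all genes passed in limma. The HO and RA libraries did not overlap for 5 of the 21 genes, 2 higher and 3 lower in HO, and for 21.4% of all genes.

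The fibrillar collagens lay mostly on the lower side in HO cells, with 7 of 8 log2 fold changes below 0 and a median of -0.10. The count was 8 of 8 on FPKM as deposited, 6 of 8 without HO replicate 2 or RA replicate 3, and 5 of 8 without HO replicate 1. Of the basement membrane collagens 3 of 7 were below 0 (median 0.08), and of the other collagens 5 of 6 (median -0.06), against 7069 of all 13831 genes. The count of other collagens was 3 of 6 with protein-coding transcripts alone, without RA replicate 1 or without HO replicate 3. That of basement membrane collagens was 2 of 7 without HO replicate 3 and 4 of 7 (median -0.02) without HO replicate 2. The summed FPKM of the fibrillar class was 310 ± 25 in HO cells and 352 ± 10 in RA cells (SD, n = 3 each). The HO libraries held 334, 310 and 284 FPKM, against 359, 341 and 357 FPKM in the RA libraries. All 3 HO sums were thus below the lowest RA sum. Col1a1 alone held 176 ± 18 FPKM of the mean sum in HO cells and 205 ± 8.6 FPKM in RA cells, so this gene weighs most in the class sum. The summed basement membrane class was 387 ± 31 FPKM in HO cells and 396 ± 4.4 FPKM in RA cells, and the other collagens summed to 54.4 ± 4.8 FPKM in HO cells and 56.1 ± 3.4 FPKM in RA cells.

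Col5a1 had the smallest p of the collagen genes in this comparison. Its level was 31.9, 29.5 and 29.5 FPKM in HO cells, against 36.2, 35.4 and 36.6 FPKM in RA cells. The groups did not overlap, and the log2 fold change was -0.24 (SE 0.0717) with an adjusted p of 0.114 in limma. Its partner Col5a2 stood at 28.0 ± 1.3 FPKM in HO cells and 28.3 ± 0.18 FPKM in RA cells.

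Col18a1 was on the higher side, with 35.5, 45.1 and 35.7 FPKM in HO cells, against 33.9, 32.9 and 30.3 FPKM in RA cells. HO replicate 2 stood well above the other HO libraries. The log2 fold change was 0.24 (SE 0.0903), with an adjusted p of 0.192 in limma. The gene sum of Col16a1 was lower in every HO library, with 3.96, 3.30 and 3.60 FPKM in HO cells, against 4.29, 4.06 and 4.48 FPKM in RA cells. Its limma adjusted p was 0.248. The share from protein-coding transcripts was 37.6%, 72.9% and 51.0% in HO cells and 14.5%, 18.5% and 42.4% in RA cells. A lower level of its coding transcripts is thus not shown.

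The type I and type IV chains showed smaller or less regular differences. Col1a1 had 191, 180 and 156 FPKM in HO cells, against 206, 196 and 213 FPKM in RA cells, with a limma adjusted p of 0.305. The 3 HO values all lay below the RA values, and HO replicate 3 was the farthest from them. Col4a1 had 171, 193 and 166 FPKM in HO cells, against 191, 189 and 186 FPKM in RA cells, and the groups overlapped.

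**Figure D3:**
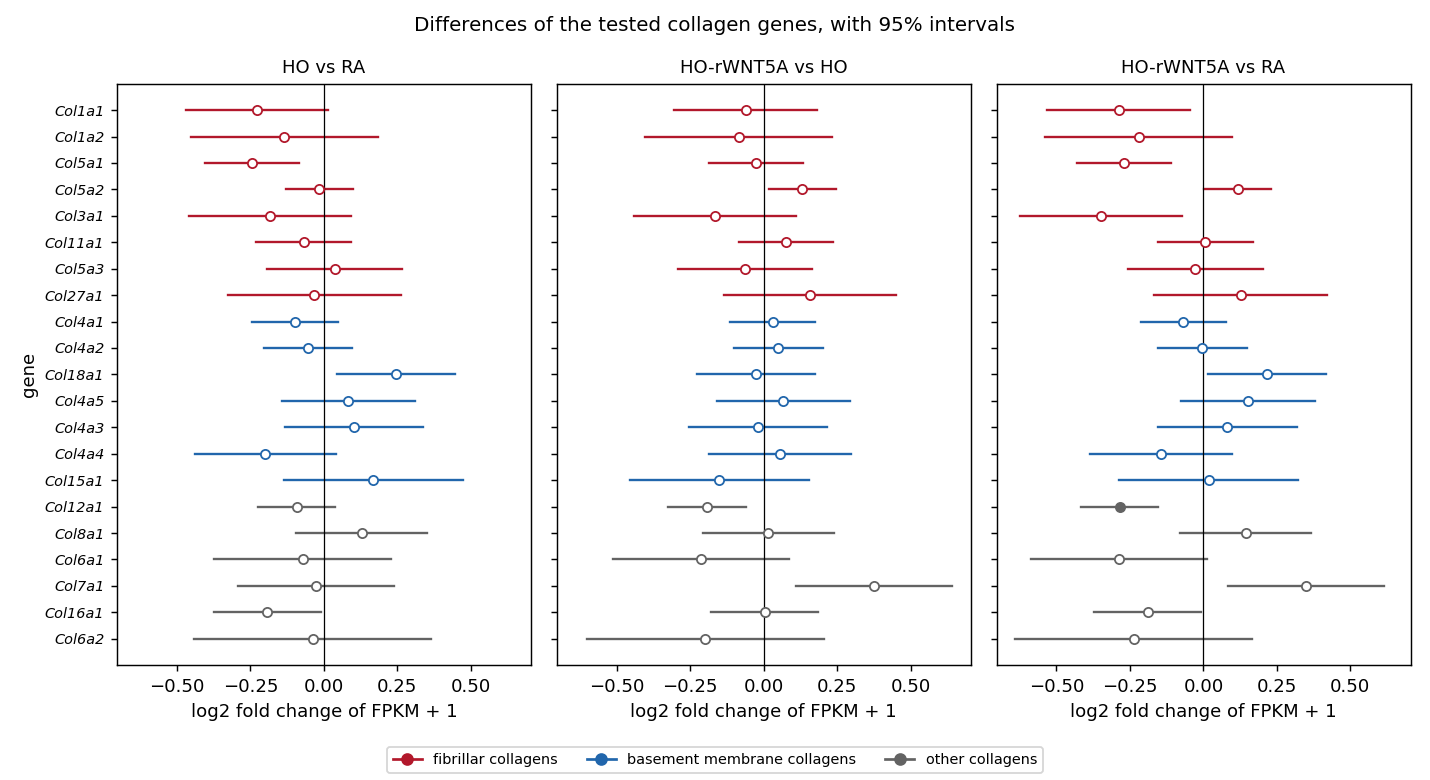
Log2 fold change of FPKM + 1 (horizontal axis) with its 95% interval for the 21 tested collagen genes, in HO vs RA, HO-rWNT5A vs HO and HO-rWNT5A vs RA from left to right; colours give the class and a filled point an adjusted p under 0.05 in limma. Col12a1 in HO-rWNT5A vs RA, at -0.28, is the single filled point.

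Adding rWNT5A to hyperoxia was compared with hyperoxia alone. None of the 21 collagen genes passed in limma, where 0.00723% of all genes passed, a single gene. At an unadjusted p under 0.05, 3 of 21 collagen genes and 1272 of all genes passed. The median log2 fold change was -0.02 for the collagen genes and 0.00 for all genes. The libraries did not overlap for 3 of 21 genes, 2 higher and 1 lower in HO-rWNT5A cells, and for 13.0% of all genes.

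These 3 genes were Col12a1, Col7a1 and Col5a2. Col12a1 had 23.6, 23.2 and 22.4 FPKM in HO-rWNT5A cells, against 27.5, 26.5 and 25.5 FPKM in HO cells, a log2 fold change of -0.19 (SE 0.0594) with an adjusted p of 0.5 in limma. Col7a1 had 6.56, 5.75 and 4.62 FPKM in HO-rWNT5A cells, against 4.18, 3.62 and 4.51 FPKM in HO cells, and its log2 fold change was 0.38 (SE 0.12) with an adjusted p of 0.5 in limma. HO-rWNT5A replicate 3 lay only just above the highest HO library. The protein-coding transcript of Col7a1 had 4.33, 3.89 and 3.25 FPKM in HO-rWNT5A cells, against 3.30, 2.86 and 3.55 FPKM in HO cells. On that transcript the groups overlapped. Col5a2 had 30.5, 31.4 and 30.3 FPKM in HO-rWNT5A cells, against 27.0, 29.5 and 27.5 FPKM in HO cells, with a limma adjusted p of 0.503. Of the 3, Col12a1 lay on the lower side and Col7a1 and Col5a2 on the higher side.

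Of the log2 fold changes, 5 of 8 fibrillar, 3 of 7 basement membrane and 3 of 6 other collagens were below 0, against 6818 of all genes. The fibrillar count was 2 of 8 without HO replicate 1 and 1 of 8 without HO-rWNT5A replicate 3. The basement membrane count was 1 of 7 with scaling to the protein-coding total or without HO replicate 2. It was 2 of 7 without HO-rWNT5A replicate 1 or 2, and 5 of 7 without HO replicate 1, HO replicate 3 or HO-rWNT5A replicate 3. The count of other collagens was 5 of 6 without HO replicate 2 or HO-rWNT5A replicate 2. The class sums overlapped between these groups. The fibrillar class summed to 302 ± 40 FPKM in HO-rWNT5A cells and 310 ± 25 FPKM in HO cells. The basement membrane class summed to 395 ± 7.2 FPKM in HO-rWNT5A cells and 387 ± 31 FPKM in HO cells. The other collagens summed to 51.4 ± 3.8 FPKM in HO-rWNT5A cells and 54.4 ± 4.8 FPKM in HO cells.

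In HO-rWNT5A cells set against RA cells, 1 of the 21 collagen genes passed in limma, against 4.26% of all genes. Col12a1 fell, with 23.6, 23.2 and 22.4 FPKM in HO-rWNT5A cells, against 29.0, 26.3 and 29.7 FPKM in RA cells. The means were 23.1 ± 0.65 and 28.3 ± 1.8 FPKM, and the log2 fold change was -0.28 (SE 0.0594, 95% interval -0.42 to -0.15) with an adjusted p of 0.0296 in limma. The highest HO-rWNT5A library stood well below the lowest RA library, and 89.9% of the gene's FPKM came from 1 protein-coding transcript. The call rests on each library of HO-rWNT5A and on RA replicates 1 and 3: leaving out any of these 5 raised the adjusted p to between 0.0705 and 0.112, with the log2 fold change still between -0.30 and -0.25. Without a filter on low values the adjusted p was 0.0675.

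At an unadjusted p under 0.05, 8 of 21 collagen genes and 2887 of all genes passed in limma. The libraries did not overlap for 8 of 21 genes, 2 higher and 6 lower in HO-rWNT5A cells, and for 32.8% of all genes. This comparison and the 2 before it share libraries, so their values stand side by side and are not independent.

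The other members with a small p did not pass. Col5a1 had 32.1, 31.0 and 26.4 FPKM in HO-rWNT5A cells, against 36.2, 35.4 and 36.6 FPKM in RA cells, a log2 fold change of -0.27 (SE 0.0717) with an adjusted p of 0.0623 in limma. It passed on FPKM as deposited (adjusted p 0.0364), with protein-coding transcripts alone (0.0488) and with the compared groups alone (0.0462). Col7a1 averaged 5.65 ± 0.97 FPKM in HO-rWNT5A cells and 4.20 ± 0.53 FPKM in RA cells, with a limma adjusted p of 0.127 and overlapping libraries. Col3a1 had 16.6, 15.8 and 11.8 FPKM in HO-rWNT5A cells, against 20.9, 18.4 and 17.4 FPKM in RA cells, with a limma adjusted p of 0.142.

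Col18a1 was the counterpart on the higher side. It had 35.7, 38.9 and 38.7 FPKM in HO-rWNT5A cells, against 33.9, 32.9 and 30.3 FPKM in RA cells. The libraries did not overlap, but the HO-rWNT5A replicate 1 value stood close to the highest RA value. The log2 fold change was 0.22 (SE 0.0903) and the limma adjusted p was 0.204, or 0.0483 with the compared groups alone. Col5a2 also lay above all RA libraries, at 30.7 ± 0.61 FPKM in HO-rWNT5A cells and 28.3 ± 0.18 FPKM in RA cells. On the lower side with no overlap were Col1a1, Col4a1 and the gene sum of Col16a1. Col1a1 had 169 ± 26 FPKM in HO-rWNT5A cells and 205 ± 8.6 FPKM in RA cells. Col4a1 had 180 ± 2.9 FPKM in HO-rWNT5A cells and 189 ± 2.6 FPKM in RA cells. Col16a1 had 3.63 ± 0.32 FPKM in HO-rWNT5A cells and 4.28 ± 0.21 FPKM in RA cells. Its share from protein-coding transcripts varied from 14.5% to 42.4% in RA cells, and every HO-rWNT5A library lay within that range. A lower level of Col16a1 coding transcripts is thus not shown in this comparison either.

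**Figure D4:**
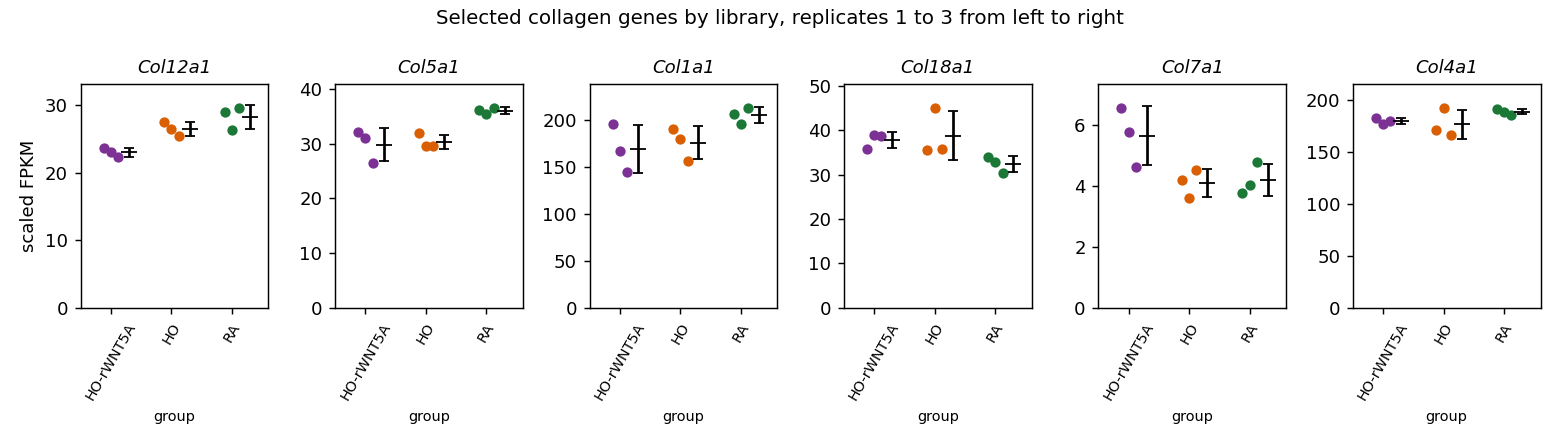
Scaled FPKM (vertical axis, from 0) of 6 collagen genes in each library, with HO-rWNT5A, HO and RA from left to right; points are libraries and the black marks give the mean and SD of 3. Col12a1 lies at 22.4 to 23.6 FPKM in HO-rWNT5A cells, below all HO and RA libraries, while Col4a1 stays between 166 and 193 FPKM.

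The fibrillar sum was 339, 309 and 260 FPKM in HO-rWNT5A cells, against 359, 341 and 357 FPKM in RA cells. All 3 HO-rWNT5A sums were below the lowest RA sum, with replicate 3 the farthest. Col1a1 alone held 169 ± 26 FPKM of the mean sum in HO-rWNT5A cells and 205 ± 8.6 FPKM in RA cells. Of the 8 fibrillar log2 fold changes, 5 were below 0 (median -0.12), and 4 (median -0.003) without HO-rWNT5A replicate 3. The fibrillar count was 6 on FPKM as deposited (median -0.182) and without HO-rWNT5A replicate 2 (median -0.195). Of the basement membrane collagens 3 of 7 were below 0 (median 0.02), and of the other collagens 4 of 6 (median -0.21), against 7049 of all genes. The basement membrane count was 2 of 7 with scaling to the protein-coding total and 4 of 7 (median -0.02) on FPKM as deposited. HO-rWNT5A replicate 3 held the lowest of the 9 values for 9 of the 21 tested collagen genes and for 5 of the 8 fibrillar genes. Without it the log2 ratio of the fibrillar sums was -0.12, against -0.22 with it. The basement membrane sum was 395 ± 7.2 FPKM in HO-rWNT5A cells and 396 ± 4.4 FPKM in RA cells.

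Col11a2, which was too low for a test, had 0.823, 0.859 and 0.633 FPKM in HO-rWNT5A cells, 0.458, 0.261 and 0.45 FPKM in HO cells, and 0.308, 0.314 and 0.484 FPKM in RA cells. All 3 HO-rWNT5A libraries were above the libraries of both other groups. By the rough depth, the gene held only 28 to 100 fragments in a library. Of all tested genes, 13.0% did not overlap in HO-rWNT5A vs HO and 32.8% in HO-rWNT5A vs RA. No such share was taken for genes too low for a test. Col20a1 had 1.14, 0.995 and 0.941 FPKM in HO-rWNT5A cells, 0.941, 0.526 and 1.07 FPKM in HO cells, and 0.768, 0.912 and 0.972 FPKM in RA cells, with overlap between all groups.

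Markers of other cell types were listed beside these differences. The summed pericyte and smooth muscle markers were 2710 to 3120 FPKM in HO-rWNT5A cells, 2420 to 3310 FPKM in HO cells and 2950 to 3300 FPKM in RA cells. Of the 7 tested members, 6 had log2 fold changes below 0 in HO vs RA (median -0.19) and in HO-rWNT5A vs RA (median -0.25), and 4 in HO-rWNT5A vs HO (median -0.01). The exception in both comparisons with RA was Notch3, a receptor of mural cells, which rose to 8.06 ± 1.2 FPKM in HO cells, against 4.76 ± 0.81 FPKM in RA cells (limma adjusted p 0.0349). No other member passed in any comparison. At an unadjusted p under 0.05 in limma, 1 of 7 was lower (Pdgfrb) and 1 higher (Notch3) in HO vs RA, where 2509 of 13831 genes passed. In HO-rWNT5A vs RA, 3 were lower (Des, Pdgfrb and Cspg4) and 1 higher (Notch3), where 2887 genes passed, and in HO-rWNT5A vs HO there was none. The summed endothelial markers were 40.6 to 50.5 FPKM in HO-rWNT5A cells, 49.4 to 55.9 FPKM in HO cells and 50.5 to 56.3 FPKM in RA cells, and the fibroblast markers summed to at most 4.73 FPKM in any library. The epithelial markers summed to 80.7 to 95 FPKM in HO-rWNT5A cells, 80.6 to 108 FPKM in HO cells and 86.6 to 103 FPKM in RA cells, and the leukocyte markers to at most 6.75 FPKM. HO replicate 3 had the smallest share of small structural RNA, at 20.16%, and the largest share of retained-intron transcripts, at 7.09%. The part of these in the collagen differences was not tested.

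Chains that share a helix or a fibril were compared as ratios of FPKM within a library, which removes the library scaling. The Col1a1 to Col1a2 ratio was 4.04 ± 0.45 in HO-rWNT5A cells, 3.96 ± 0.29 in HO cells and 4.22 ± 0.31 in RA cells. The Col4a1 to Col4a2 ratio was 1.26 ± 0.060 in HO-rWNT5A cells, 1.28 ± 0.055 in HO cells and 1.32 ± 0.025 in RA cells. The groups overlapped for both ratios, as they did for Col6a1 to Col6a2 and Col3a1 to Col1a1.

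The type V ratio did not overlap between RA and either other group. Among single genes, such non-overlap was found for 21.4% in HO vs RA and 32.8% in HO-rWNT5A vs RA. No share over the ratios of other genes was taken. Col5a1 to Col5a2 was 1.05, 0.985 and 0.873 in HO-rWNT5A cells, 1.18, 1.00 and 1.07 in HO cells, and 1.28, 1.24 and 1.30 in RA cells. Every library in hyperoxia, with or without rWNT5A, lay below every RA library. The exact two-sided permutation p was 0.1 for both comparisons with RA, the smallest that 3 against 3 libraries allow, and 0.45 after Benjamini-Hochberg adjustment over 18 ratios and comparisons. The Col11a1 to Col5a1 ratio, of chains that also mix in type V and XI fibrils, was 0.315 ± 0.033 in HO-rWNT5A cells, 0.291 ± 0.016 in HO cells and 0.259 ± 0.024 in RA cells. It too did not overlap between RA and either other group, with the same exact permutation p of 0.1 and 0.45 after the same adjustment. Both ratios hold Col5a1, so they are not independent. Col11a1 itself averaged 9.36 FPKM in HO-rWNT5A cells, 8.81 FPKM in HO cells and 9.31 FPKM in RA cells. Between HO-rWNT5A and HO cells all 6 ratios overlapped.

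**Figure D5:**
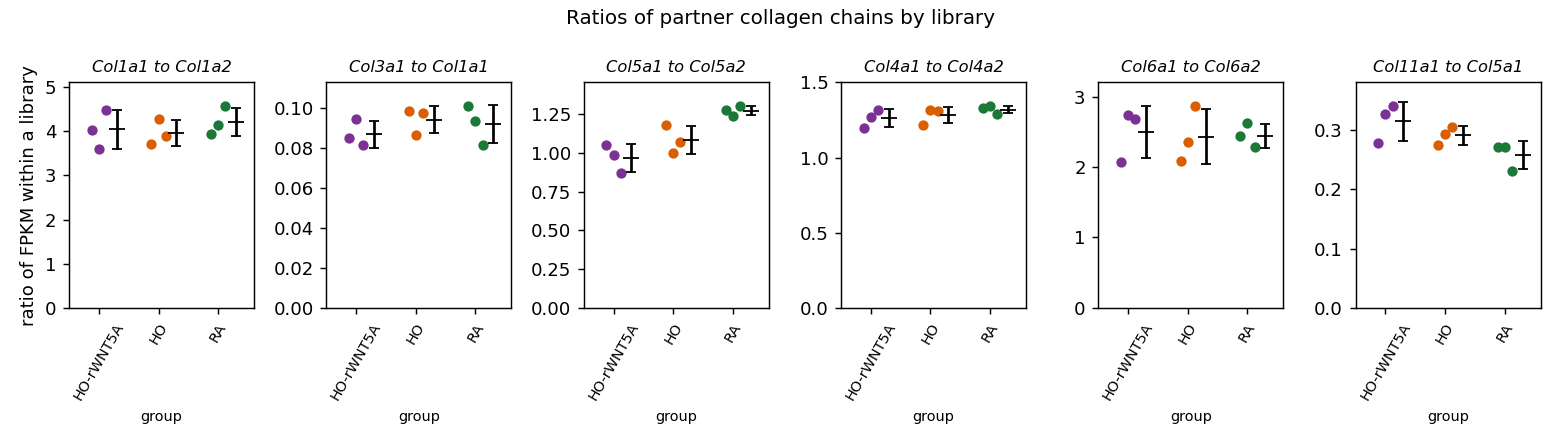
Ratio of FPKM of partner chains within each library (vertical axis, from 0), with HO-rWNT5A, HO and RA from left to right; points are libraries and black marks give the mean and SD of 3. The Col5a1 to Col5a2 ratio lies at 0.873 to 1.05 in HO-rWNT5A cells, 1.00 to 1.18 in HO cells and 1.24 to 1.30 in RA cells.

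The Col4a5 FPKM divided between a pair of coding transcripts in an irregular way. One averaged 14.9 FPKM and the other averaged 4.27 FPKM. The lower one was listed at 0 in HO replicates 2 and 3 and in RA replicate 3 and reached 11.3 FPKM in HO-rWNT5A replicate 3. Such jumps within a group leave the split between these transcripts uncertain, and the gene sum was used.

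Collagen chains need a set of enzymes and carriers before they become matrix, and a list of 51 such genes was read beside the chains. Of these, 44 reached the level needed for a test. The most abundant of each role were P4hb, a subunit of prolyl hydroxylase, at 124 FPKM; Serpinh1, the collagen chaperone of the endoplasmic reticulum, at 211 FPKM; Bmp1, which removes the C-propeptide, at 111 FPKM; and the crosslinking enzyme Loxl2 at 139 FPKM. The fibril partner Sparc stood at 665 FPKM and the receptor subunit Itgb1 at 802 FPKM. None of these 6 passed in limma in the 3 comparisons, and at an unadjusted p under 0.05 only Bmp1 in HO vs RA and Loxl2 in both comparisons of HO-rWNT5A did.

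In HO vs RA, 1 of 44 of these genes passed, where 1.97% of all genes did. It was Sec24d, a coat protein of the vesicles that carry procollagen out of the endoplasmic reticulum. It had 15.2, 16.1 and 14.2 FPKM in HO cells, against 20.6, 18.6 and 18.6 FPKM in RA cells. The groups did not overlap, and Sec24d fell by 0.33 on the log2 scale (SE 0.0668, limma adjusted p 0.0415). The call was lost in 12 of 17 alternatives, where the adjusted p reached 0.126. Over the list, 26 of 44 log2 fold changes were below 0, with a median of -0.05, against 7069 of all 13831 genes below 0.

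In HO-rWNT5A vs HO, none of the 44 passed in limma. At an unadjusted p under 0.05, 3 of 44 passed, against 1272 of all 13831 genes. Of the 44 log2 fold changes, 36 were below 0, with a median of -0.05, against 6818 of all genes and a median of 0.00. The count of 36 was 28 with scaling to the protein-coding total or when HO replicate 1 or HO replicate 2 was left out, and 25 when HO-rWNT5A replicate 3 was left out.

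In HO-rWNT5A vs RA, 3 of 44 passed, 1 higher and 2 lower, where 4.26% of all genes did. Tll1, a relative of Bmp1 that also removes the C-propeptide, rose, with 16.7, 15.8 and 17.5 FPKM in HO-rWNT5A cells, against 11.6, 11.6 and 12.3 FPKM in RA cells (log2 fold change 0.46, SE 0.0609, limma adjusted p 0.00522). Its HO libraries lay between, at 12.95, 14.4 and 13.7 FPKM, and overlapped neither group. It passed in all 17 alternatives, with adjusted p from 0.00343 to 0.0311.

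Sec24d fell to 15.8, 14.7 and 14.3 FPKM in HO-rWNT5A cells, against 20.6, 18.6 and 18.6 FPKM in RA cells (limma adjusted p 0.022). Adamts14, which removes the N-propeptide, fell to 2.21, 2.09 and 1.81 FPKM in HO-rWNT5A cells, against 2.96, 2.92 and 2.99 FPKM in RA cells (limma adjusted p 0.0301). Leaving out any library of RA or HO-rWNT5A ended the Adamts14 call, and leaving out any of them but HO-rWNT5A replicate 1 ended the Sec24d call. Without a filter on low values both calls were lost, with adjusted p of 0.0712 for Adamts14 and 0.0632 for Sec24d.

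The 5 lysyl oxidase genes, which crosslink collagen, all had log2 fold changes below 0 in HO vs RA and in HO-rWNT5A vs RA. None of the 5 passed in limma. At an unadjusted p under 0.05 the count was 1 of 5 in HO vs RA, against 2509 of all 13831 genes, and 3 of 5 in HO-rWNT5A vs RA, against 2887 of all genes. The signs held for every tested member in all alternatives run. Of the 44 tested genes of the list, 18 had HO-rWNT5A libraries that all lay below the RA libraries, a pattern found in 16.5% of all genes. For 3 they all lay above, a pattern found in 2259 of all 13831 genes.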

How the data were processed

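RNA of 9 libraries was deposited by the authors as FPKM per transcript. Per the labels' protocols, total RNA libraries read as 150-base pairs were trimmed with Skewer 0.2.2, aligned with STAR 2.5.3a, assembled with StringTie 1.3.1 and set against Ensembl with gffcompare 0.9.9c. The submitters' processing notes list mm10 and hg38 without saying which applied; the identifiers are those of mouse.

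Of 142351 transcripts with an Ensembl mouse identifier, 99.36% were found in GENCODE M21 (GRCm38, mm10). FPKM was summed per gene and scaled between libraries by median ratios to a geometric mean library. The 13831 genes that averaged 1 deposited FPKM or more were tested on log2(scaled FPKM + 1), a scale that understates changes of low genes, with limma 3.58.1 in R 4.3.3: 1 model over all 9 libraries, variance trend, two-sided, Benjamini-Hochberg over all genes, threshold 0.05. Ratios within libraries were compared by exact permutation. Other steps ran in Python 3.11.15 with numpy 2.4.6, pandas 2.3.3 and, for plots, matplotlib 3.10.9.

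FPKM hides depth, so depth is a rough estimate from the product of FPKM and length worth 1 fragment, held by only 28 to 83 of 4134 to 4564 transcripts looked at; precision is read from the spread of replicates. No count test was run. Tested on simulated data for 13831 genes, limma called in HO vs RA 83 of 100 genes given a 1.5-fold change, 97 of 100 given a 2-fold change and 13 given none; in HO-rWNT5A vs HO it called 88, 97 and 6. The changes were put into the HO libraries alone, so HO-rWNT5A vs RA held none and 0 genes were called there. Recovery of changes in that comparison was not simulated. Nor was it simulated for the lowest of the tested genes, which were given no change, or for changes under 1.5-fold.

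The collagen genes, the biosynthesis and marker lists, the tests and the alternatives were chosen with earlier results of these data known. All collagen genes are accounted for; named with values are those that reached the level for a test, the nearest ones below it, the partner chains, the 3 uncalled members of smallest p in each comparison, and, from the biosynthesis list, the called genes and the most abundant of each role. Others named were chosen after their values were seen. Protein features were planned, but no protein table was at hand, so glycine codons (GG and any base) were read from the coding sequence instead.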

Additional observations from a re-analysis of the deposited data

How the results depend on the processing

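No collagen gene passed in HO vs RA and in HO-rWNT5A vs HO under any alternative run. Over 72 single-gene values and 1197 alternatives, 33 lost and 4 gained a call, and no called value changed sign; 60 uncalled values did. In HO-rWNT5A vs RA the count of collagen genes was 0 without a filter, 2 on FPKM as deposited, 2 with protein-coding transcripts, 3 with the compared groups alone and 0 to 1 with a library left out. Of the biosynthesis genes, 0 passed in HO vs RA without a filter, with protein-coding transcripts and with the compared groups alone, and 0 to 1 with a library left out. In HO-rWNT5A vs RA 1 passed without a filter, 7 on FPKM as deposited, 6 with the compared groups alone and 1 to 6 with a library left out. All genes called in HO vs RA were 69 without a filter, 67 with the compared groups alone and 2 to 706 with a library left out. In HO-rWNT5A vs HO they were 0 without a filter or with protein-coding transcripts, 3 with the compared groups alone and 1 to 27 with a library left out. In HO-rWNT5A vs RA they were 222 without a filter, 1330 with the compared groups alone and 124 to 1018 with a library left out. Of the counts with a library left out, the highest in each comparison came without HO replicate 3. On FPKM as deposited the split turned to 103 higher and 179 lower in HO vs RA, against 167 and 106, and to 209 higher and 615 lower in HO-rWNT5A vs RA, against 331 and 258. The log2 ratio of the basement membrane sums in HO-rWNT5A vs RA was -0.0733 on FPKM as deposited, against -0.0044 as scaled. The 18 ratio comparisons gave 15 sign changes in 162 alternatives. The cause was not tested.

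Libraries share replicate numbers, but libraries of the same number did not deviate together in every pair of any comparison (r from -0.12 to 0.28), so the numbers were not taken to pair them. With the replicate block, 116 genes passed in HO vs RA, 2 in HO-rWNT5A vs HO and 393 in HO-rWNT5A vs RA. With the block 0 collagen genes passed in each comparison, and Col12a1 had an adjusted p of 0.0513 in limma; of the biosynthesis genes 0 passed in HO vs RA and 2 in HO-rWNT5A vs RA, where Adamts14 was lost (adjusted p 0.0523).

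Depth is known only roughly, and with 3 libraries a group 1 library often decides a call. The exact test of 3 against 3 libraries cannot pass 0.05.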
